A study of Mus musculus with 8 samples.

Results

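The genes described here are 9 MHC class I heavy chain genes of the mouse (H2-K1, H2-D1, H2-Q4, H2-Q6, H2-Q7, H2-T10, H2-T22, H2-T23 and H2-M2) and B2m, which encodes their shared light chain, β2-microglobulin. They were taken by gene symbol from a table of RNA-seq counts, where they are 10 of 55385 genes, and all 10 had enough counts to be tested with 17537 genes in all. The libraries came from primary cultured microglia of wild-type mice, grown from the neocortex and hippocampus of newborn animals, with cells of several brains pooled in the flasks and microglia shaken off the mixed culture. The 4 control cultures were untreated by their labels (given PBS by the methods of the study), and the 4 IgG cultures received 10 µg/ml IgG for 24 h from DIV15. Each replicate number has 1 date in the labels, shared by its control and its IgG culture, which gives 4 pairs of libraries, and the comparison asks how far the transcriptome of microglia differs after IgG.

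A class I molecule consists of a heavy chain, β2-microglobulin and, in most cases, a peptide loaded in the endoplasmic reticulum, and it is shown at the cell surface to CD8 T cells and natural killer cells. The classical heavy chains H2-K and H2-D are expressed in most nucleated cells, whereas the products of the Q, T and M regions, called non-classical, are less polymorphic and have narrower roles. Class I genes are textbook targets of interferon, and their promoters carry binding sites for NF-κB, for interferon regulatory factors (the interferon-stimulated response element, ISRE), and for the RFX, CREB/ATF and NF-Y factors that act together with the transactivator Nlrc5.

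With IgG, every one of the 10 genes had a higher mean level, and in 9 of them the IgG library was above its control in all 4 pairs, as in 10.4% of all genes tested. The median difference over the 10 genes was 0.63 on the log2 scale, against -0.01 over all genes tested. H2-T22 rose by 1.57-fold and was the 1 gene of the 10 to pass adjustment. The test was edgeR's quasi-likelihood test with the date as a block and Benjamini-Hochberg adjustment, where 0.393% of all genes tested passed as higher. In edgeR without the block the adjusted p of H2-T22 was 0.692. H2-K1, H2-Q6, H2-Q7, H2-T10, H2-T23 and H2-M2 also met the criterion of the study's methods, an unadjusted p-value under 0.01 with an absolute log2 fold change above 0.5, which 1.48% of all genes tested met as higher. H2-D1, H2-Q4 and B2m did not meet it. Without the block 3 of the 10 genes met it, against 0.582% of all genes tested as higher. All the genes that met the criterion with the block are listed by the study among genes drawn from these libraries. The counts are therefore not independent evidence of a direction. Marker sums of other cell types and the mitochondrial share of some IgG libraries differed as well, as given below.

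The promoter windows are shown because all of these genes are compared for a change with IgG, and 9 of the 10 have a window in RefSeq (GRCm38.p6). Each run below is the 250 bases before the RefSeq start of the gene, 5′ to 3′ on the strand of the gene, and capitals mark matches, on either strand, to a κB site of 10 letters, to the ISRE core TTTCNNTT, to the CRE half-site TGACG and to the Y box CCAAT. The windows lie at chr17:34000348-34000597 on the minus strand for H2-K1, at chr17:35438905-35439154 on the plus strand for H2-Q7, at chr17:36042743-36042992 on the minus strand for H2-T22, and at chr2:122147437-122147686 on the plus strand for B2m. The κB site searched was an exact run of 10 letters, which reads as the first run of capitals in the H2-K1 line. No match overlaps another in these windows.
H2-K1: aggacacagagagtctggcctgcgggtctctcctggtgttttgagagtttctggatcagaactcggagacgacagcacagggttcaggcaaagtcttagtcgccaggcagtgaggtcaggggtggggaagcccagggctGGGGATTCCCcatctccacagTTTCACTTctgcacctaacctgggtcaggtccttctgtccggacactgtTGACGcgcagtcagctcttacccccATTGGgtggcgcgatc
H2-Q7: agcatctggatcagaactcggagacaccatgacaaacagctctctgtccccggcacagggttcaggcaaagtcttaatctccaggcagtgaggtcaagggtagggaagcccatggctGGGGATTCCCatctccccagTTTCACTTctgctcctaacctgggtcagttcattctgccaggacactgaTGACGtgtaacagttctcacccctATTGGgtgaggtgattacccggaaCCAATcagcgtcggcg
H2-T22: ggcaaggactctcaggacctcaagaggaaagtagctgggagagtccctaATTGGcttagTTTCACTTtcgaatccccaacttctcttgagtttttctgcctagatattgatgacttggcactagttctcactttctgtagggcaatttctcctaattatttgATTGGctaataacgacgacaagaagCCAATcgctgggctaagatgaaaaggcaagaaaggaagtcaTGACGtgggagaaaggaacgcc
B2m: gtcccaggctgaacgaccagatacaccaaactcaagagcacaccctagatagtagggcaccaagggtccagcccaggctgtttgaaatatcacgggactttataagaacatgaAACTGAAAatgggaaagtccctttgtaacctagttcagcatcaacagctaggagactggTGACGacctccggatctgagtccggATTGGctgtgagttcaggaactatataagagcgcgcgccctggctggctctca

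The ISRE core was matched in 9 of the 9 windows, against 21.3% of 32851 RefSeq windows of the same length. The Y box was matched in 9 of 9 (33.8% of all windows), the CRE half-site in 7 of 9 (17.8%) and the κB site in 4 of 9 (0.0852%). The κB match occurred in H2-K1, H2-D1, H2-Q6 and H2-Q7. Variants of the exact κB letters were not counted, such as the run ggggatttccc in the H2-Q4 window. The 0.0852% is therefore a share for those letters alone. In H2-K1 the κB, ISRE, CRE and Y box matches began at positions -111, -90, -41 and -16, and H2-D1 held the same 4 in the same order from -171, -150, -101 and -76. Positions depend on the RefSeq start, which can differ from that of GENCODE. The H2-D1 window (chr17:35262844-35263093) lies within the GENCODE span of its gene. The H2-T23 window (chr17:36032702-36032951) lies partly within its own, with both of its ISRE matches in that part. The best local alignment of the windows of H2-K1 and H2-D1 had 161 identical positions of 177 (91.0%), and that of H2-Q6 and H2-Q7 had 205 of 211 (97.2%). Among H2-K1, H2-D1, H2-Q4, H2-Q6 and H2-Q7 the identity was 79.4% to 97.2%, so these 5 windows are not independent of each other. The windows of H2-T22, H2-T23 and H2-M2 aligned with other heavy chain windows at 53.4% to 65.7%, and that of B2m with the heavy chains at 61.0% to 65.0%. The matched ISRE core of the other windows is shown with 6 bases on each side, because it is found in all 9.
H2-D1: cctcagTTTCACTTctgcac
H2-Q4: ccccagTTTCACTTctgctc
H2-Q6: ccccagTTTCACTTctgctc
H2-T23: tactgcTTTCTCTTtcataa
H2-T23: ttctcaTTTCTGTTggacgc
H2-M2: ctggagTTTCCCTTcttttg

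The core TTTCACTT was identical in H2-K1, H2-D1, H2-Q4, H2-Q6, H2-Q7 and H2-T22. H2-T23 and H2-M2 had other letters at the free positions, and H2-T23 had a match at both -124 and -81. In B2m the match lay on the other strand, as AACTGAAA from -137. A match is a description of the letters in the window, and no binding was measured.

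In control cultures the level per length of the 10 genes spanned from B2m to H2-Q7. Levels between genes are given as CPM (counts scaled by TMM library size) per kilobase of exon. B2m had 1878 ± 240 (SD, n = 4), H2-D1 951 ± 89 and H2-K1 234 ± 47, and the ranges of these 3 did not overlap. H2-T23 followed at 63.3 ± 21.3 and H2-Q4 at 50.1 ± 14.8, with ranges of 42.5 to 83.2 and 32.5 to 63.8 that overlapped. The remaining genes lay between 4.36 ± 1.35 for H2-Q7 and 14.1 ± 4.7 for H2-T22. Among these, H2-T22, H2-M2 (12.1 ± 1.9), H2-Q6 (9.54 ± 3.97), H2-T10 (7.60 ± 1.505) and H2-Q7 each overlapped with the next in the order. The order of the 10 means was the same in the IgG cultures, where B2m had 2627 ± 541 and H2-Q7 6.83 ± 2.15.

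**Figure D1:**
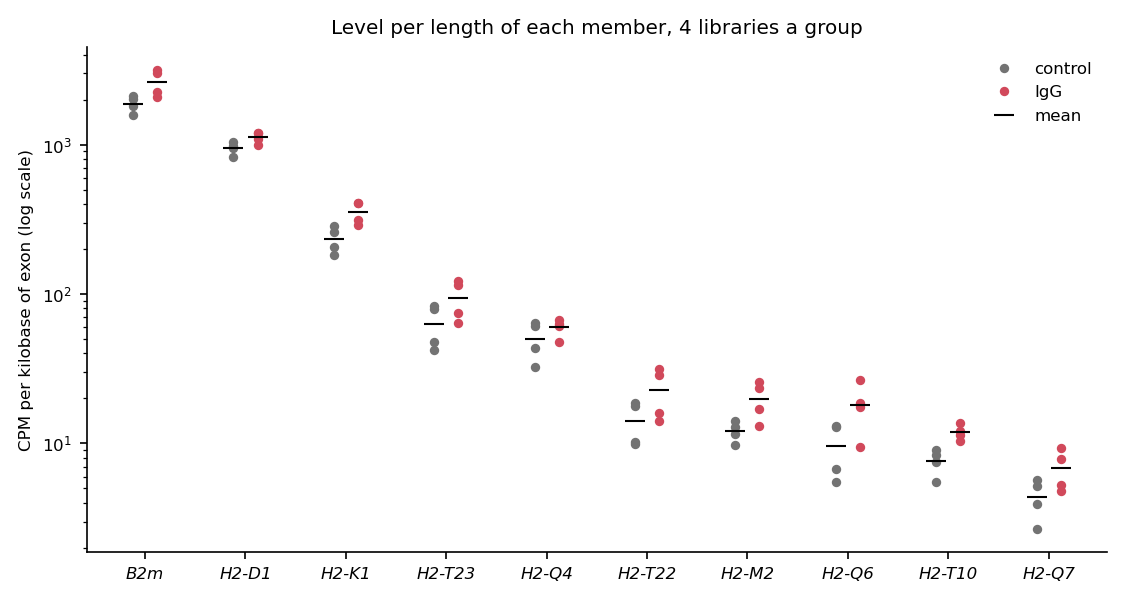
Level of each gene in CPM per kilobase of exon, on a log scale, in the 4 control (grey) and 4 IgG (red) libraries, with bars for the means. B2m, H2-D1 and H2-K1 stand above the others, and the genes are in the same order in both groups.

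The libraries held 21287816 to 23703216 counts, so the 10 genes together were 0.45% to 0.60% of counts in controls and 0.62% to 0.68% with IgG. Counts of the mitochondrial genome took 4.85% and 5.59% of the IgG libraries of replicates 1 and 3, and 1.97% to 2.41% of the other 6. These 2 libraries stand apart, and values of pairs 2 and 4 alone and of pairs 1 and 3 alone, a choice made after the data were seen, are therefore given below for all 10 genes. The 10 microglial markers were all present and summed to 7067 to 7823 CPM in controls and 7927 to 8413 CPM with IgG, ranges that did not overlap. Of 7 markers of T and NK cells, other cells rich in class I, 6 had no count in any library and the list summed to at most 0.10 CPM. B cell markers summed to at most 0.55 CPM. Markers of border-associated macrophages summed to 66.0 to 93.0 CPM in controls and 64.3 to 115 CPM with IgG, and those of oligodendrocytes to 1275 to 1909 and 1122 to 1807 CPM. In both groups the oligodendrocyte sums of replicates 2 and 4 lay above those of replicates 1 and 3. They were 1909 and 1717 against 1275 and 1316 CPM in controls, and 1807 and 1692 against 1122 and 1139 CPM with IgG. Any link of this split to the levels of the class I genes was not tested. Within pairs, the microglial sum was higher with IgG in 4 of 4, and the sums of oligodendrocyte, astrocyte and neuron markers were lower with IgG in 4 of 4. Astrocyte markers summed to 128 to 142 CPM in controls and 116 to 137 CPM with IgG, and neuron markers to 40.3 to 68.7 and 36.3 to 54.4 CPM. The part of these marker differences and of the mitochondrial share in the differences with IgG given above and below was not tested. In bulk RNA, fewer cells and less RNA per cell cannot be told apart.

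H2-K1 (ENSMUSG00000061232, chr17:33996017-34000347, minus strand, mm10), a classical heavy chain that shows peptides to CD8 T cells, had 767, 606, 836 and 538 CPM in control replicates 1 to 4 and 1187, 851, 1199 and 921 CPM in the IgG libraries of the same numbers. The lowest IgG library lay above the highest control. The difference was 1.52-fold (log2 0.60 ± 0.10 SE), with an unadjusted p of 0.000218 and an adjusted p of 0.0509 in edgeR's quasi-likelihood test with the block, just outside the threshold of 0.05. Pairs 2 and 4 alone gave 0.63 and pairs 1 and 3 alone 0.56.

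H2-D1 (ENSMUSG00000073411, chr17:35262730-35267499, plus strand), the other classical heavy chain, had 2682, 2538, 2453 and 2140 CPM in controls and 2792, 3106, 2545 and 3097 CPM with IgG. The groups overlapped, and the within-pair differences were 0.06 and 0.05 on the log2 scale in pairs 1 and 3 against 0.29 and 0.53 in pairs 2 and 4. The fitted difference was 1.18-fold (log2 0.23 ± 0.12 SE, adjusted p = 0.532 by the same edgeR test). With pairs 2 and 4 alone it was 0.41, and with pairs 1 and 3 alone 0.04. The pairs with the smallest difference of H2-D1 were those whose IgG library had the high mitochondrial share.

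B2m (ENSMUSG00000060802, chr2:122147686-122153083, plus strand), the light chain needed for most heavy chains to reach the surface, had 1812, 1554, 1742 and 1353 CPM in controls and 2715, 1929, 2598 and 1793 CPM with IgG. All 4 pairs were higher with IgG, although the lowest IgG library lay slightly under the highest control. The difference was 1.38-fold (log2 0.47 ± 0.10 SE, unadjusted p = 0.00155, adjusted p = 0.143, edgeR quasi-likelihood test). It was 0.36 in pairs 2 and 4 alone and 0.56 in pairs 1 and 3 alone.

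**Figure D2:**
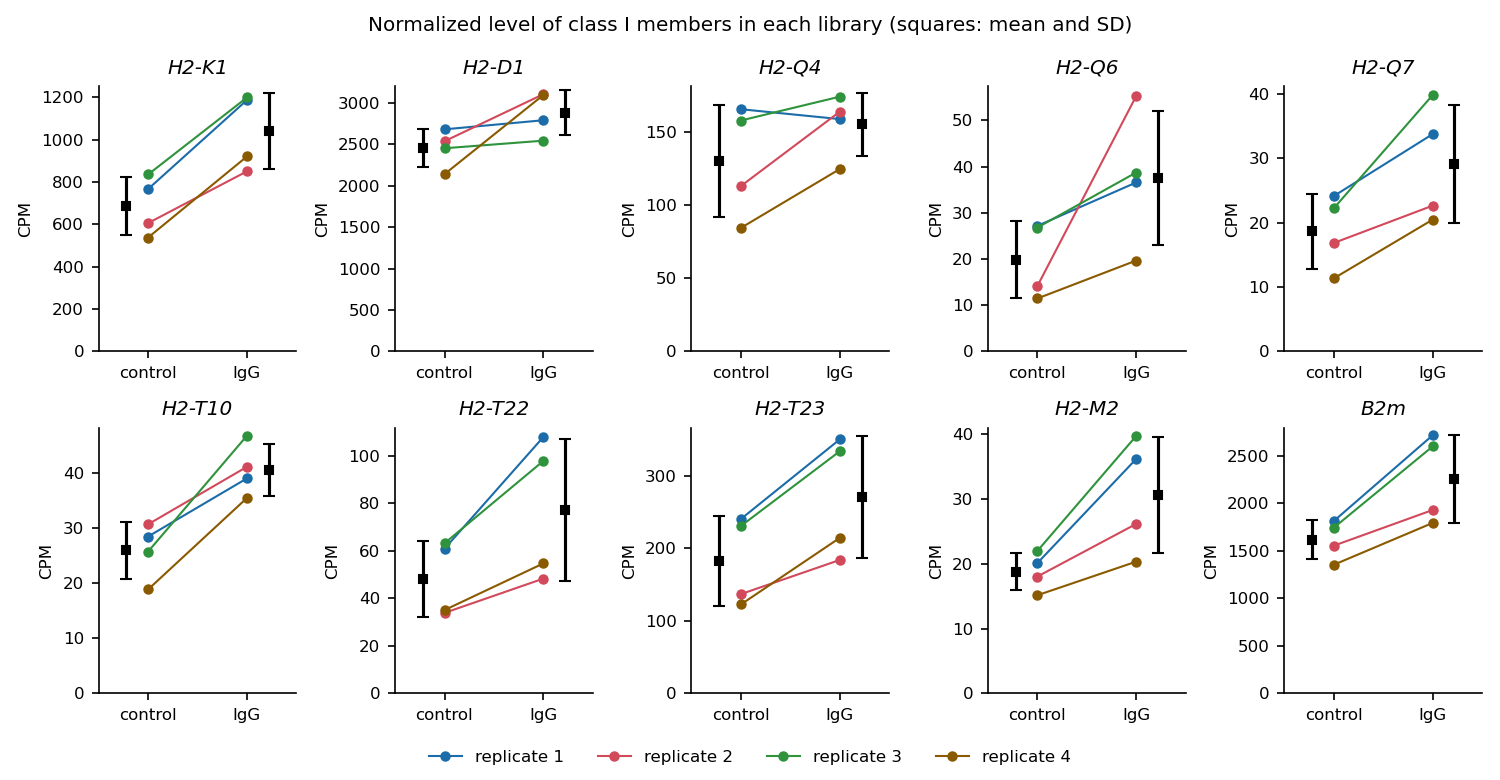
CPM of each of the 10 genes in control and IgG libraries, with a line joining the 2 libraries of a pair (replicates 1 to 4 by colour) and black squares with bars for the group mean and SD (n = 4). Lines run upward in all panels except that of H2-Q4 in pair 1, and pairs 1 and 3 lie above pairs 2 and 4 in both groups for H2-K1, H2-Q7, H2-T22, H2-T23, H2-M2 and B2m.

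The ratio of the classical heavy chains to B2m did not move alike in the 4 pairs. H2-K1 and H2-D1 together, per kilobase, were 0.617, 0.659, 0.610 and 0.644 of B2m in the controls and 0.471, 0.666, 0.462 and 0.726 with IgG. On the log2 scale the differences were -0.39 and -0.40 in pairs 1 and 3 and 0.02 and 0.17 in pairs 2 and 4. The mean log2 difference was -0.15 ± 0.29 (SD, n = 4 pairs), with p = 0.5 in an exact two-sided permutation test over the signs of the pairs, where 0.13 is the smallest p the design allows. B2m has a GC content of 41.2%, against 54.3% for H2-K1 and 55.9% for H2-D1. With a correction for trends on GC content and length in the fit with the block, the log2 difference of B2m was 0.38, that of H2-D1 was 0.28 and that of H2-K1 was 0.63.

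Between the 2 classical genes, H2-K1 took 22.2%, 19.3%, 25.4% and 20.1% of the counts of H2-K1 and H2-D1 in the controls and 29.8%, 21.5%, 32.0% and 22.9% with IgG. The share was higher in 4 of 4 pairs, by 4.82 ± 2.69 percentage points (SD), at the smallest p possible of 0.13 in the exact two-sided permutation test. This share was computed after the values of both genes were seen.

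H2-Q4 (ENSMUSG00000035929, chr17:35379617-35385290, plus strand), a non-classical heavy chain of the Q region, had 166, 113, 158 and 84.4 CPM in controls and 159, 164, 174 and 125 CPM with IgG. It was the only one of the 10 genes with a lower IgG library in any pair, pair 1. The fitted difference was 1.23-fold (log2 0.29 ± 0.12 SE, adjusted p = 0.479, edgeR with the block), and it was 0.55 in pairs 2 and 4 alone and 0.02 in pairs 1 and 3 alone. Like H2-D1, it differed more in pairs 2 and 4 than in pairs 1 and 3.

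H2-Q6 (ENSMUSG00000073409, chr17:35424850-35430055, plus strand) encodes, with H2-Q7, the Qa-2 antigen, a ligand of T cells and natural killer cells. It had 27.2, 14.1, 26.8 and 11.5 CPM in controls and 36.6, 55.3, 38.7 and 19.7 CPM with IgG. The IgG library of replicate 2 was the highest of the 8, a within-pair log2 difference of 1.96 against 0.43, 0.53 and 0.77 in pairs 1, 3 and 4. H2-Q6 had the largest fitted difference of the 10, 1.89-fold (log2 0.92 ± 0.24 SE, adjusted p = 0.258, edgeR with the block), which became 0.58 when pair 2 was left out. Pairs 2 and 4 alone gave 1.40 and pairs 1 and 3 alone 0.46, the same direction of the split as in H2-D1 and H2-Q4.

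H2-Q7 (ENSMUSG00000060550, chr17:35439155-35443773, plus strand) had 24.1, 16.8, 22.2 and 11.3 CPM in controls and 33.7, 22.6, 39.8 and 20.4 CPM with IgG. Its difference was 1.57-fold (log2 0.65 ± 0.12 SE, adjusted p = 0.0676, edgeR with the block), with 4 pairs between 0.42 and 0.85, and it was 0.63 in pairs 2 and 4 alone and 0.64 in pairs 1 and 3 alone. The high value of H2-Q6 in IgG replicate 2 had no counterpart in H2-Q7, whose IgG replicate 2 was below its IgG replicates 1 and 3.

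H2-T22 (ENSMUSG00000056116, chr17:36037128-36042747, minus strand) and H2-T10 are closely related heavy chains that serve as ligands of γδ T cells. H2-T22 had 60.9, 33.9, 63.2 and 35.1 CPM in controls and 108, 48.3, 97.9 and 54.8 CPM with IgG. Pairs 1 and 3 were high and pairs 2 and 4 low in both groups, so that the groups overlapped although every pair rose. The rise was 1.57-fold (log2 0.65 ± 0.09 SE, adjusted p = 0.0331, edgeR quasi-likelihood test with the block), and pairs 2 and 4 alone gave 0.58, pairs 1 and 3 alone 0.71. Without the block the log2 difference was 0.68 and the adjusted p was 0.692, and over 21 alternative settings the adjusted p ranged from 5.88e-06 to 1.0.

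H2-T10 (ENSMUSG00000079491, chr17:36115876-36121465, minus strand, annotated in GENCODE as a polymorphic pseudogene) had 28.5, 30.8, 25.8 and 18.9 CPM in controls and 39.1, 41.2, 46.9 and 35.6 CPM with IgG. The groups did not overlap. Its difference was 1.58-fold (log2 0.66 ± 0.12 SE, adjusted p = 0.0676, edgeR with the block), and it was 0.66 in pairs 2 and 4 alone and 0.64 in pairs 1 and 3 alone. Unlike H2-T22, its control levels did not separate pairs 1 and 3 from pairs 2 and 4.

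H2-T23 (ENSMUSG00000067212, chr17:36029773-36032855, minus strand) encodes Qa-1, which presents a leader peptide of other class I chains to the CD94/NKG2 receptors of natural killer cells. It had 240, 137, 231 and 123 CPM in controls and 350, 184, 334 and 214 CPM with IgG. As in H2-K1, H2-Q7, H2-T22, H2-M2 and B2m, replicates 1 and 3 lay above replicates 2 and 4 in both groups, here with the IgG libraries of replicates 2 and 4 under the controls of replicates 1 and 3. The difference was 1.49-fold (log2 0.58 ± 0.10 SE, adjusted p = 0.0551, edgeR with the block), and it was 0.62 in pairs 2 and 4 alone and 0.52 in pairs 1 and 3 alone.

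H2-M2 (ENSMUSG00000016283, chr17:37480851-37483552, minus strand), at the M region end of the complex, had 20.1, 18.0, 21.98 and 15.2 CPM in controls and 36.2, 26.2, 39.8 and 20.3 CPM with IgG. All IgG libraries except that of replicate 4 were above every control. The difference was 1.59-fold (log2 0.67 ± 0.11 SE, adjusted p = 0.0588, edgeR with the block), with 0.83 in pairs 1 and 3 alone and 0.48 in pairs 2 and 4 alone, the opposite split to that of H2-D1, H2-Q4 and H2-Q6.

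**Figure D3:**
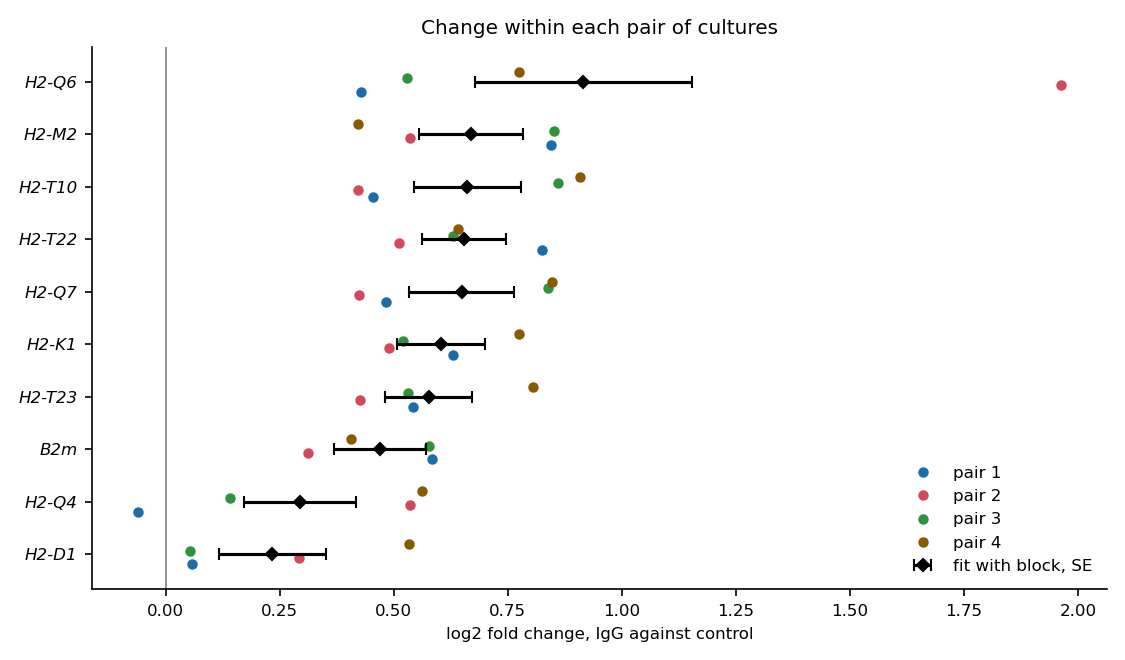
Log2 difference between the IgG and the control library of each pair (coloured points) and the fitted log2 fold change with its SE (black diamonds) for the 10 genes, in order of the fit. H2-Q6 has 1 pair far from the others at 1.96, H2-Q4 is the only gene with a pair below 0, and H2-D1 has the smallest fit, 0.23.

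Counted over the 10 genes, 1 was called higher at an adjusted p under 0.05 and 7 met the criterion on unadjusted p. Without the block these counts were 0 and 3 (H2-K1, H2-T10 and H2-M2), against 0.582% of all tested genes past the criterion as higher. At an unadjusted p under 0.05 with the block, 9 genes were higher, against 6.35% of all. The groups did not overlap in 2 genes (H2-K1 and H2-T10), against 2.6% of all tested genes with every IgG library the higher. The study itself lists H2-K1, H2-Q6, H2-Q7, H2-T10, H2-T22, H2-T23 and H2-M2 among genes it drew from these libraries, so the counts are not independent evidence of a direction. The medians of the 10 genes within pairs 1 to 4 were 0.51, 0.46, 0.55 and 0.71, and the medians of all genes within the same pairs lay between 0.00 and 0.02.

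The call of H2-T22 rests on the setting. It was lost without the block, with scaling by total counts alone, and without replicate 1, 2 or 3. Without replicate 4, H2-K1, H2-T22, H2-T23 and H2-M2 were called, where 0.974% of all tested genes were called higher. DESeq2 and edgeR's likelihood ratio test with the block each called 8 genes, all except H2-D1 and H2-Q4, and called 1.21% and 1.6% of all tested genes higher. With pairs 2 and 4 alone, in a fit with 1 residual degree of freedom, 7 genes met the criterion, which 1.17% of all tested genes met as higher.

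Among the heavy chains, H2-Q4, H2-Q6, H2-Q7, H2-T10, H2-T22, H2-T23 and H2-M2, the 7 non-classical genes chosen here, together took 14.1%, 10.4%, 14.3% and 10.0% of the counts of the 9 heavy chain genes in controls and 16.1%, 12.0%, 17.1% and 10.9% with IgG. The share was higher in 4 of 4 pairs, by 1.81 ± 0.81 percentage points (SD), with p = 0.13 in an exact two-sided permutation test, the smallest this design allows. This rests on the genes chosen. A second count, a choice made after the data were seen, used the 32 genes taken as class I heavy chains by H2 symbol, pseudogenes included. In it the share of genes other than H2-K1 and H2-D1 was 27.8%, 23.5%, 28.9% and 23.5% in controls and 28.6%, 24.0%, 30.3% and 22.5% with IgG. It was then higher in 3 of 4 pairs and lower in pair 4, by 0.44 ± 1.01 percentage points on average (SD, p = 0.5 in the same exact test). For the 7 genes, the difference between replicates 1 and 3 and replicates 2 and 4 within either group was larger than the difference within any pair.

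**Figure D4:**
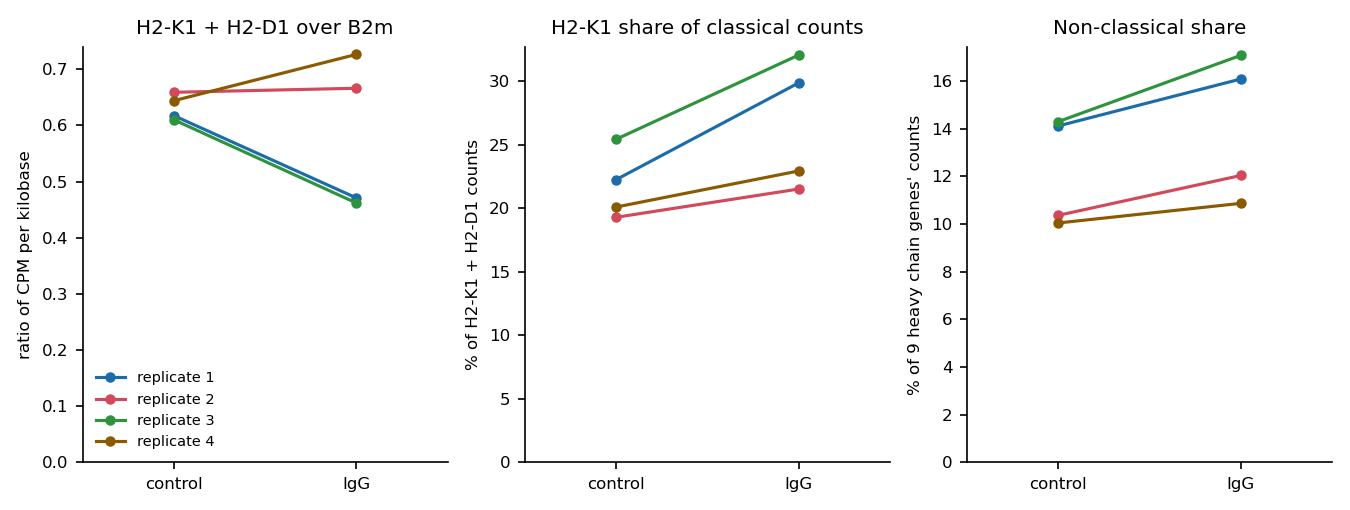
For each library, the ratio of H2-K1 and H2-D1 to B2m in CPM per kilobase (left), H2-K1 as a percent of the counts of H2-K1 and H2-D1 (middle) and the 7 non-classical genes chosen here as a percent of the counts of the 9 heavy chain genes (right), with lines joining pairs. The ratio falls to 0.471 and 0.462 in replicates 1 and 3 only, while both of these shares are higher with IgG in every pair.

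Levels were also compared between the 4 dates, of which the labels do not say whether they mark culture, harvest or another step. In an F test of the dates in the same edgeR fit, H2-T22 (adjusted p = 0.0154) and H2-T23 (adjusted p = 0.0284) differed between dates, where 0.975% of all tested genes did. The highest control was 1.86 times the lowest for H2-T22 and 1.96 times for H2-T23. It was 2.37 times for H2-Q6, 2.13 times for H2-Q7 and 1.96 times for H2-Q4, which did not pass between dates. H2-D1 had the lowest ratio of the 10 genes, 1.25, and the highest adjusted p in the F test, 0.908. The levels of the 10 genes over the 8 libraries followed their common mean with Pearson's r from 0.87 to 0.97 in 9 genes and 0.59 in H2-D1, as a description over libraries that share dates, with each gene part of the mean. The genes outside the class I lists most like that mean were Gm49392 (0.993), Lrrc25 (0.993), AB124611 (0.992), Gm43069 (0.992) and Zc3h12b (0.989).

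Other class I heavy chain genes, taken by H2 symbol and with pseudogenes among them, were examined in the same way. Genes under other symbols were not included. Of 23 in the table, 10 had no count in any library and 9 could be tested. Of these 9, 1 passed adjustment as higher and 2 met the criterion as higher, against 0.393% and 1.48% of all tested genes. H2-T24, a heavy chain gene of the T region, rose by 0.76 ± 0.09 (SE) on the log2 scale with an adjusted p of 0.0145 in edgeR with the block, from 72.4 ± 28.4 to 125 ± 55 CPM (SD, n = 4). Without the block its adjusted p was 0.692, and with 1 pair left out it ran up to 0.183. It was called in 9 of 21 alternatives, over which the adjusted p ran from 8.2e-09 to 1.0, and it also differed between dates (adjusted p = 0.00787, edgeR). The pseudogene H2-T-ps, also listed by the study, met the criterion at 0.60 ± 0.11 (adjusted p = 0.0693, edgeR). The others met neither: H2-M3, which presents formylated peptides, had 0.28, H2-Q2 0.17, H2-K2 0.13, H2-Q10 0.10, H2-Q1 0.04, H2-Q5 0.00 and H2-Bl -0.60. The median of the 9 was 0.13. Among 5 tested class I-like genes none was called, and the log2 differences were 0.34 for Hfe, a regulator of iron uptake, 0.31 for Fcgrt, the heavy chain of the neonatal Fc receptor that pairs with B2m, 0.22 for Mr1, 0.12 for Cd1d1 and -0.35 for Procr.

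The machinery that supplies peptides was higher in mean, but only 1 of 13 tested genes met the criterion and none passed adjustment. All 13 had a positive log2 difference, from 0.09 to 0.53 with a median of 0.28, and 7 were higher in all 4 pairs, where 10.4% of all tested genes were and 1.48% met the criterion as higher. Tap1, a subunit of the transporter that carries peptides into the endoplasmic reticulum, met the criterion at 0.53 ± 0.09 (adjusted p = 0.0520, edgeR with the block), going from 53.0 ± 14.3 to 77.1 ± 23.7 CPM (SD, n = 4). Its partner Tap2 had 0.13 and the bridging chaperone Tapbp 0.45 (adjusted p = 0.112 by edgeR). Psmb8 (0.33), Psmb9 (0.33) and Psmb10 (0.14), the catalytic subunits of the immunoproteasome, did not meet the criterion.

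Of the 15 regulators of class I transcription reported here, 7 had positive and 8 negative differences. They ran from -0.19 to 0.45 on the log2 scale with a median of -0.01. None of these 15 met the criterion in the edgeR fit with the block. In that fit 2 were higher at an unadjusted p under 0.05, as were 6.35% of all tested genes. These 2, named after their values were seen, were Stat2 (0.45 ± 0.09 SE, adjusted p = 0.110) and Irf9 (0.25 ± 0.09 SE, adjusted p = 0.423). Both, and also Atf1 (0.06), were higher in 4 of 4 pairs, as were 10.4% of all tested genes. Nlrc5, the transactivator of class I genes, had 55.7 ± 20.2 CPM in controls and 58.7 ± 21.8 with IgG (log2 0.07 ± 0.09 SE, adjusted p = 0.777, edgeR), and it differed between dates (adjusted p = 0.0127). Irf1 had -0.07.

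None of the receptors listed for class I was called. Of 6 tested, 3 had positive (Pirb, Pira2 and Lilra6) and 3 negative differences (Lilrb4a, Lilr4b and Lilra5). Whether each of them binds class I was not examined, so the split is one of the list. Pirb, the inhibitory paired receptor that binds class I, had 90.2 ± 12.2 CPM in controls and 92.8 ± 13.1 with IgG (log2 0.04 ± 0.09 SE, adjusted p = 0.882, edgeR). In MHC class II, which presents peptides to CD4 T cells, none of 9 tested genes was called and the median was 0.01. Cd74, the invariant chain, had the highest difference there, 0.33.

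**Figure D5:**
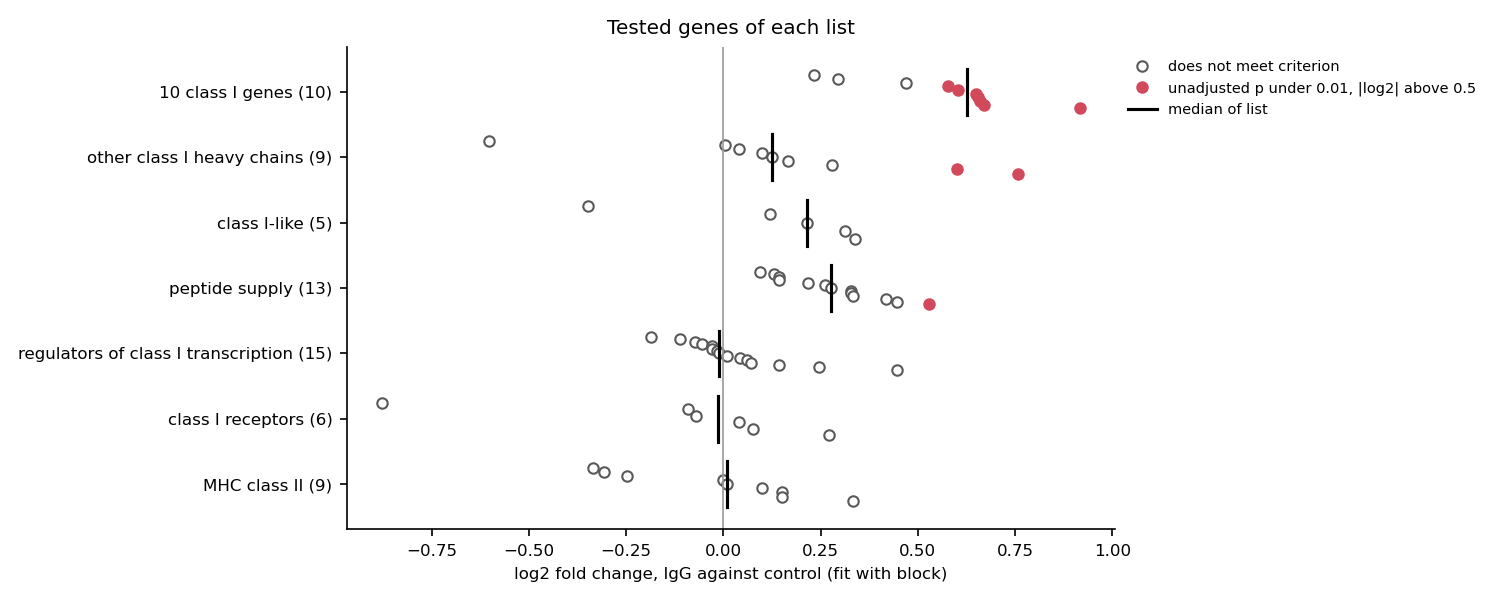
Fitted log2 fold change of each tested gene, IgG against control, for the 10 class I genes and the 6 related lists, with the number tested in parentheses, filled points for genes that met the criterion and black bars for medians. The 10 genes have a median of 0.63, the peptide supply genes 0.28, and the medians of the regulators reported here, the receptors and the class II genes lie around 0.

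Some of these genes share sequence, which matters for counts whose treatment of strand and of reads with several alignments is not given in the sources used here. The read length is also not given there, and shares are printed for stretches of 100 bases first. Of all such stretches in their transcripts, none in B2m and H2-M2, 0.96% in H2-K1, 3.15% in H2-T23 and 3.59% in H2-D1 also occur in a transcript of another gene. The share was 12.0% in H2-Q7, 13.04% in H2-Q6, 14.1% in H2-Q4, 28.1% in H2-T10 and 31.5% in H2-T22. With stretches of 50 bases it was 0% in B2m, 1.61% in H2-M2, 9.63% in H2-K1, 12.8% in H2-D1, 14.5% in H2-T23 and 26.4% to 53.5% in the other 5. With 150 bases it was at most 1.35% in H2-K1, H2-D1, H2-T23, H2-M2 and B2m and 5.90% to 22.3% in the other 5. At 100 and 150 bases, most of the share of H2-T22 lies with the opposite-strand gene A930015D03Rik, whose exons overlap 1003 of its 3414 exon bases. That of H2-T10 then lies mostly with BC023719, which overlaps 925 of 3419. At 50 bases H2-T22 shared most with H2-T10 (31.25%, against 26.55% with A930015D03Rik). H2-T10 likewise shared most with H2-T22 (31.7%, against 24.87% with BC023719). Gm11131 overlaps 496 of the 2596 exon bases of H2-Q4 from the opposite strand. A930015D03Rik had a log2 difference of -0.39 and BC023719 of 0.01, at adjusted p of 0.563 and 0.978 by edgeR. Gm11131 had 0.07 (adjusted p = 0.891 by edgeR), with 0.49 in pairs 2 and 4 alone and -0.355 in pairs 1 and 3 alone, a split in the same direction as that of H2-Q4. Values of H2-T10, H2-T22, H2-Q4, H2-Q6 and H2-Q7 are therefore uncertain as single genes, and at 50 bases H2-K1, H2-D1 and H2-T23 share sequence as well.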

How the data were processed

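Polyadenylated RNA of 8 microglial cultures was sequenced by the authors. The deposited values are raw counts for each Ensembl gene ID, neither normalized nor filtered. The methods describe removal of adapter-containing and low-quality reads before alignment. The submitters' processing notes name HISAT2 2.2.1, SAMtools 1.12, Picard 2.26.3, featureCounts, edgeR 3.36.0 and R 4.1.2, and the mm10 (GRCm38) genome. The annotation and the handling of strand and multiple alignments are not given in the sources used here.

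Symbols, positions, exon lengths and GC content came from GENCODE M21, where 55144 of 55385 identifiers were found. Counts were scaled with TMM, filtered with filterByExpr to 17537 genes and fitted in edgeR 4.0.16 (R 4.3.3) with group and replicate number as terms. The quasi-likelihood test was used, with Benjamini-Hochberg adjustment over all genes tested. The thresholds were an adjusted p of 0.05, or the study's criterion of an unadjusted p of 0.01 and a log2 difference of 0.5. Changes within a pair are differences of log2 CPM with a prior count of 2. In the fit with the block, p-values rest on the spread of the IgG difference between pairs. Without the block they rest on the spread between cultures of a group. The exact tests use differences within pairs alone.

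The replicate number was a block because the labels give same-numbered libraries 1 date. After group means were removed, control and IgG libraries of 1 number correlated at 0.44, 0.38, 0.26 and 0.32 over 14155 genes, and those of different numbers at -0.36 to 0.23. These are correlations across genes, which are no independent replicates. Removing the group means by itself lowers the values between different numbers. The positive values between different numbers joined replicates 1 and 3 (0.23 and 0.18) and replicates 2 and 4 (0.18 and 0.17). No libraries of a group agreed within sampling noise (chi-square per degree of freedom of at least 5). The fits were tested on simulated data. DESeq2 1.42.0, limma-voom (limma 3.58.1), other scalings and filters, a correction for GC content and length (lowess, span 0.3) and the omission of libraries were alternatives.

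All 10 genes are named, along with related genes by list and the 5 genes most correlated with their mean. 1 gene of the list of regulators is not reported here. These genes and lists were chosen with earlier results of these data known. Promoter windows and motif shares came from the RefSeq table of GRCm38.p6.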

Additional observations from a re-analysis of the deposited data

How the results depend on the processing

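No direction reversed in 210 values of the 10 genes under 21 alternatives, of which 31 values newly passed adjustment and 13 lost it. The number of the 10 genes with an adjusted p under 0.05, 1 with the replicate block, was 0 without the block, 8 with the likelihood ratio test, 8 with DESeq2, 3 with limma-voom, 0 with total counts alone, 8 without a filter on low counts, and 6 with the replicate block and GC and length correction. In the same order the genes called higher among all tested were 69, 0, 281, 213, 87, 37, 305 and 207. It ran from 0 to 4 when single pairs or libraries were left out. The number past the criterion, 7, was 3 without the block and ran from 1 to 8 when pairs or libraries were left out. Single libraries were left out of the fit without the block, so their counts compare with 3. The median log2 fold change of 0.63 ran from 0.47 (without control replicate 4) to 0.71 (without control replicate 1). The number of genes that differed between dates, 2, was 1 with total counts alone, 7 without the filter and 6 with the likelihood ratio test, where 0.975%, 0.821%, 2.84% and 5.38% of all tested genes did in the same order, and ran from 0 to 2 with pairs left out. The causes were not tested. Total counts alone moved the median of all genes to -0.11. Chosen after seeing the data, pairs 2 and 4 alone gave 7 genes past adjustment and pairs 1 and 3 alone 8, but those fits have 1 residual degree of freedom and called 190 and 7682 genes in all. With 4 pairs, no exact test within pairs can go below 0.13.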
